A study of Homo sapiens with 6 samples.

Results

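The genes described here encode the nuclear part of the respiratory chain: the subunits of complexes I to IV and of the ATP synthase whose names begin with NDUF, SDH, UQCR, COX or ATP5. They were picked by a pattern of gene symbols that itself uses no measured values, and pseudogene names were left out. The set was chosen with earlier results of these data known. The rule found 82 genes among the 61267 gene rows of the count table. It takes 36 subunits of complex I, 4 of complex II, 9 of complex III, 15 of complex IV (NDUFA4, long counted with complex I, is placed here) and 18 of the ATP synthase. It leaves out some true subunits with other kinds of name, such as CYC1 and COX4I1, which are described beside it.

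RNA was sequenced from THP-1, a human monocytic leukemia line, in 6 libraries. All 6 came from cells that had received 100 ng/ml of the phorbol ester PMA for 48 h, a treatment that makes these cells attach and take on features of macrophages. By their labels 3 libraries were NC and 3 were KD, and no label names the target of KD. The series title names METTL1, an enzyme that places 7-methylguanosine in RNA, together with acute inflammation. The comparison below asks how the RNA of the respiratory chain subunits differed between the libraries labelled KD and those labelled NC. Separate cultures are not mentioned in the labels, so each p-value reflects the spread among these libraries alone, and that spread may be technical.

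In the inner mitochondrial membrane, complexes I and II pass electrons from NADH and succinate to ubiquinone, complex III passes them on to cytochrome c, and complex IV hands them to oxygen. Complexes I, III and IV pump protons as they do so, and the ATP synthase uses the returning protons to make ATP. Most subunits are encoded in the nucleus and imported, while a few core subunits are encoded by mitochondrial DNA, so each of these complexes except complex II is built from the products of both genomes. In macrophages the balance between this chain and glycolysis is known to change with activation.

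Total counts per library ran from 37628972 to 42970216. METTL1 stood at 14.1, 15.9 and 14.2 CPM (counts per 1000000 counts of the library, scaled by the TMM factor of edgeR) in the NC libraries and at 14.4, 13.5 and 13.3 in the KD libraries, so the groups overlapped and its difference did not pass the test (log2 fold change −0.10, SE 0.076, edgeR adjusted p = 0.216; with library sizes alone −0.29, adjusted p = 0.00249). On the leukocyte scale described below METTL1 was at −1.33 (edgeR adjusted p = 3.89e-15), beside an all-gene median of −1.27. Of all tested genes 36.2% were higher in KD and 40.3% lower, to be set beside the marker lists that follow. All 13 tested genes of a macrophage and monocyte list were higher in KD, with a summed level of 1150 to 1174 CPM in NC against 2532 to 2570 in KD. Of 72 leukocyte-restricted genes, 70 were higher and 0 lower, with a summed level of 5195 to 5416 CPM in NC against 13366 to 13702 in KD. Of 24 tested genes typical of embryonic kidney lines, neural cells and epithelia, 21 were lower and 2 higher. Their summed level was 3065 to 3504 CPM in NC, with the neurofilament gene NEFM at a mean of 1595 CPM, and 114 to 121 in KD, where LIN28B, ID4, GALNT13 and POU3F3 had no count. Of 7 tested fibroblast and smooth muscle genes 3 were higher and 2 lower (41.1 to 44.7 CPM in NC, 119 to 120 in KD, LUM without a count in KD). T, NK and B cell genes summed to 7.1 to 8.5 CPM in NC against 7.1 to 8.7 in KD, with CD3E and CD3G without a count in any library. The sums of these lists, except the T, NK and B cell genes, were separate between the groups, and the part of these marker differences in the results below was not tested. In bulk RNA, fewer cells of a type and less RNA per cell cannot be told apart.

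Summed together, the subunit genes held a larger share of all counts in KD than in NC. They took 0.579%, 0.606% and 0.579% of the counts in the NC libraries and 0.639%, 0.645% and 0.669% in the KD libraries, so the groups did not overlap. This sum rests most on the genes with the most counts. Gene by gene, library sizes alone gave 24 higher and 24 lower (28.4% and 47.3% of all tested genes). Of the 82 genes, 76 had counts high enough to be tested. The others were COX6A2, COX6B2, COX7A1, COX7B2, COX8C and ATP5MGL, which are paralogs with few or no counts and are taken up below. At an edgeR adjusted p of 0.05, 40 of the 76 were higher in KD, 15 were lower and 21 did not pass. That is 72.4% called, beside 76.5% of all 21905 tested genes. By direction, 52.6% of the subunit genes were higher beside 36.2% of all tested genes, and 19.7% were lower beside 40.3%. For 53 of the 76 (69.7%) the KD and NC levels were fully separate in CPM, beside 78.0% of all tested genes.

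The differences among the subunit genes were small. Their median log2 fold change was 0.17, with quartiles of −0.07 and 0.41, while over all tested genes the median was −0.05 and the quartiles were −0.90 and 0.57. Of the 76, 64 (84.2%) stayed within 1.5-fold, beside 43.3% of all tested genes. A difference of at least 2-fold was found for 2 of them, NDUFB9 and NDUFA9, beside 35.5% of all tested genes.

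The direction of these values depended on the scale. TMM assumes that most genes do not differ, and other scales move every gene by the same amount. With library sizes alone the all-gene median fell to −0.23, and 24 subunit genes were higher and 24 lower (28.4% and 47.3% of all tested genes), with a subunit median of −0.02. On a scale set by the 72 leukocyte-restricted genes, which assumes that these did not differ, the all-gene median fell to −1.27, and 0 subunit genes were higher and 75 lower (3.24% and 83.9% of all tested genes), with a subunit median of −1.06. What the scale did not move was the distance from other genes. The subunit median lay 0.22 above the all-gene median on each of the 3 scales, and 56 of the 76 genes lay above that median on each. The shares of all tested genes on each scale also belong beside the counts by complex below. On the TMM scale they were 36.2% higher and 40.3% lower. Below, "rose" and "fell" are calls on the TMM scale, a signed number in parentheses after a gene is its log2 fold change on that scale, and each group of subunits is also placed against the all-gene median.

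**Figure D1:**
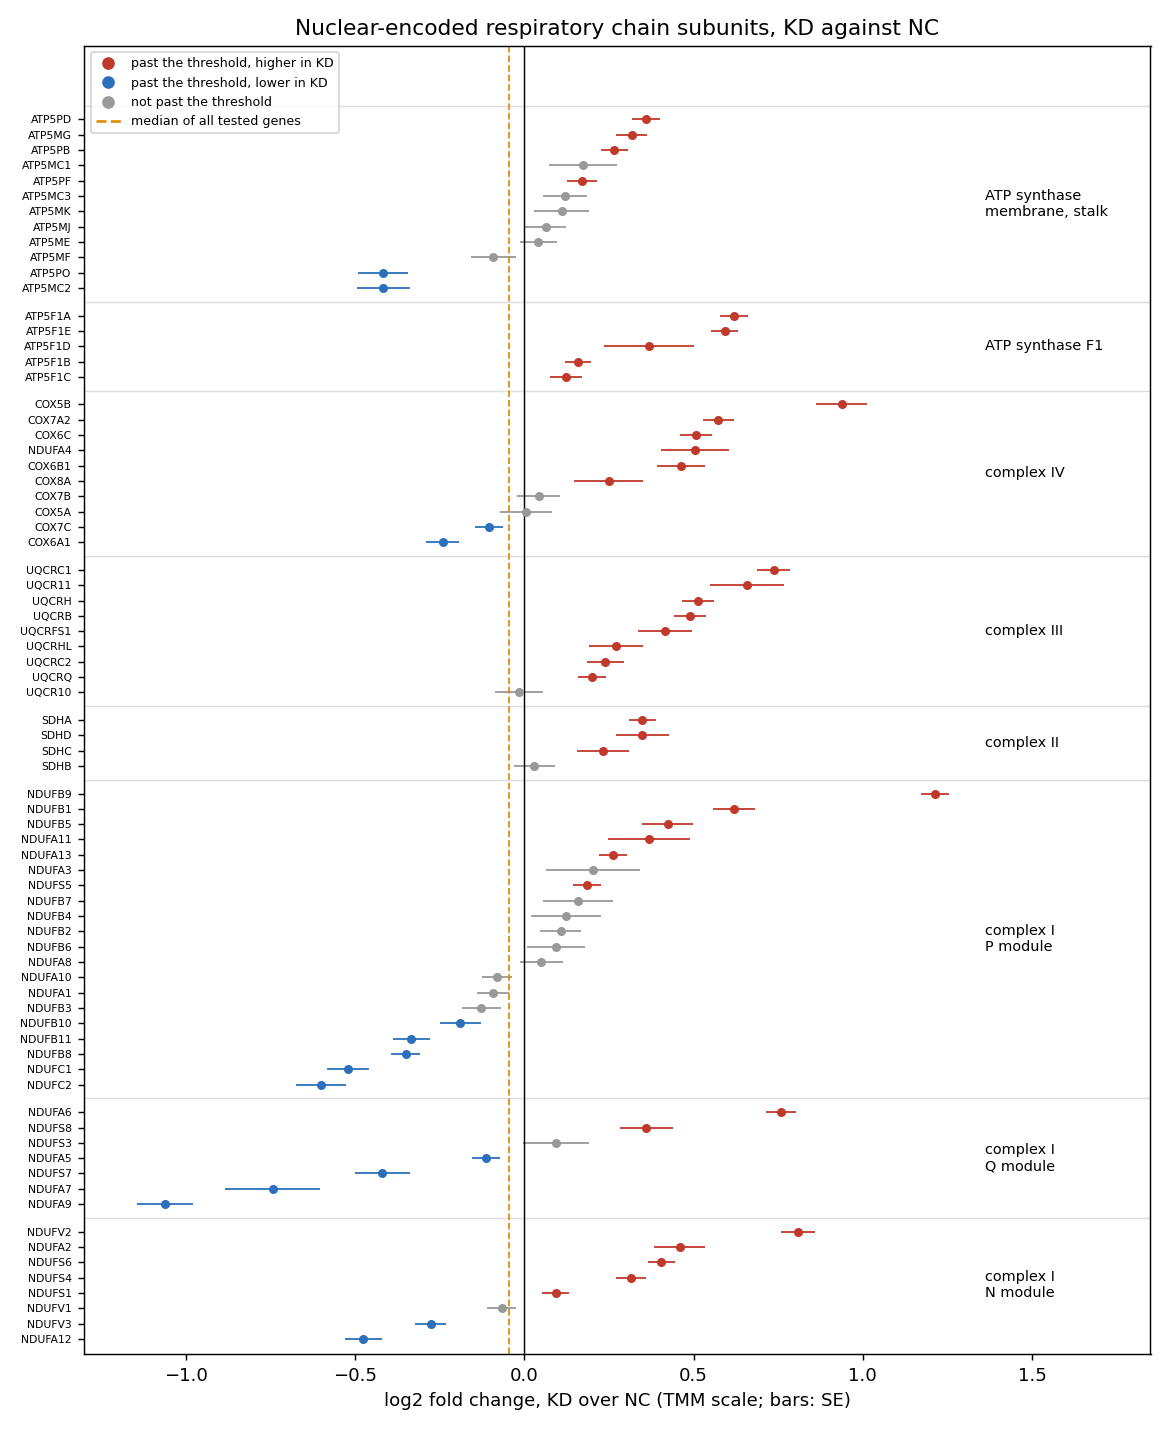
Log2 fold change of 75 tested subunit genes, KD over NC, on the TMM scale (x axis; points are edgeR estimates from 3 libraries a group, bars are 1 SE), grouped by complex or module. Red points were higher (39), blue lower (15) and grey did not pass (21), and the dashed line is the all-gene median of −0.05; on the leukocyte scale 0 of the 76 tested genes were higher and 75 lower.

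Levels were compared between genes as CPM per kilobase of exon, since longer genes collect more counts. Averaged over the 6 libraries, the tested subunit genes ran from 1.28 CPM per kilobase (NDUFA11) to 1132 (NDUFS5), with a median of 12.4. After NDUFS5 came NDUFA6 at 255, COX6C at 207, UQCRH at 176 and NDUFS6 at 147 CPM per kilobase. Exon length here is the union of all exons annotated for a gene, which is 548 bases for NDUFS5, 12600 for UQCRB and 16591 for NDUFB9, so a gene with many listed transcripts scores low per kilobase. Across the 76 genes the level per kilobase and the exon length had a Spearman rho of −0.52, and they share the length. The log2 fold change had a rho of 0.26 with the level per kilobase and of 0.041 with the exon length, as descriptions across genes, which are not independent replicates.

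**Figure D2:**
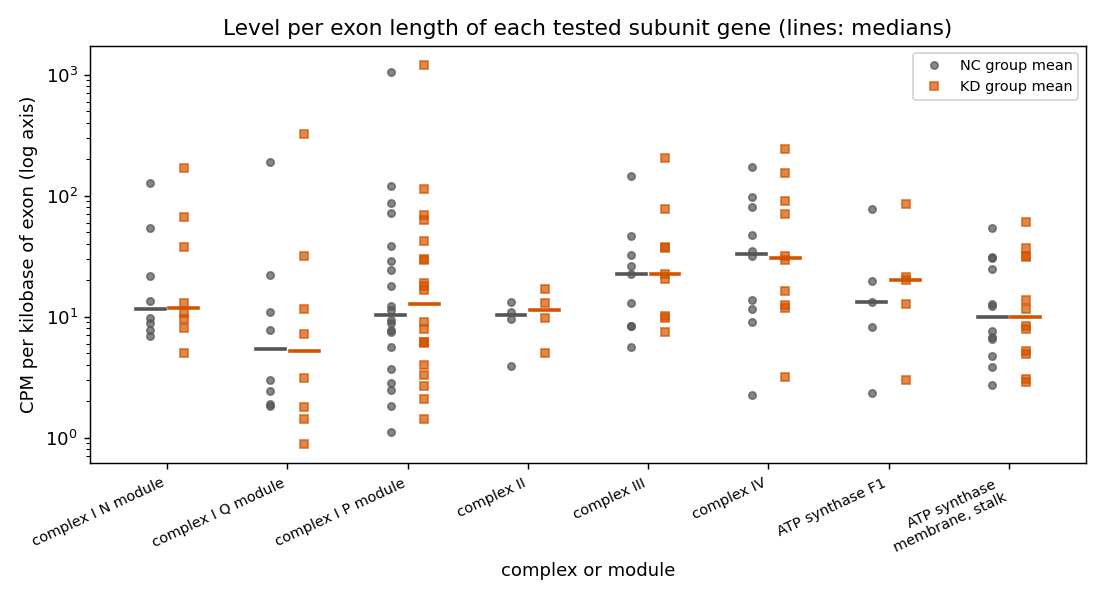
Level of each tested subunit gene in CPM per kilobase of exon (log axis) by complex or module; circles are NC means, squares KD means (3 libraries each), lines group medians. NDUFS5 is the highest gene (1132 over all libraries), and within each complex the genes spread far more than the groups differ.

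Complex I has a matrix arm that oxidises NADH (the N module) and reduces ubiquinone (the Q module) and a membrane arm that pumps protons (the P module). Its 36 nuclear genes were the most divided: 14 rose, 11 fell and 11 did not pass on the TMM scale, with a median of 0.09, whereas on the leukocyte scale 0 were higher and 35 lower. Of its 29 supernumerary subunits, which surround the core that is conserved in bacteria, 10 rose and 10 fell. Beside these counts, 36.2% of all tested genes were higher and 40.3% lower on the TMM scale (leukocyte scale: 3.24% and 83.9%). A split in both directions is thus not particular to complex I. Relative to the all-gene median 21 of the 36 lay above it on every scale.

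In the N module 5 of 8 genes rose and 2 fell (median 0.20; leukocyte scale: 0 higher, 8 lower), and 5 lay above the all-gene median on each scale. Library sizes alone gave 4 higher and 4 lower. NDUFV2, a core iron-sulfur subunit, stood at 55.1, 59.8 and 61.1 CPM in NC and at 102, 96.6 and 109 CPM in KD. Each KD library was above each NC library, and the log2 fold change was 0.81 (SE 0.049, edgeR adjusted p = 1.2e-13). The table also holds an unnamed gene, ENSG00000265257, that shares 771 exon bases with NDUFV2 on the same strand and had a log2 fold change of 0.85, so the reads of both may be counted for each. NDUFS6, a small zinc-binding subunit and the most abundant of the module per kilobase, went from 113 ± 0.73 to 149 ± 2.09 CPM (mean ± SD, n = 3, as for all values given this way), a log2 fold change of 0.41. NDUFA2 and NDUFS4, an accessory subunit known from mutations that cause Leigh syndrome, rose by 0.46 and 0.31 on the log2 scale. The core subunit NDUFS1, the largest of the complex, was called higher on the TMM scale (0.09, edgeR adjusted p = 0.0354) and lower with library sizes alone (−0.10, edgeR adjusted p = 0.0275). NDUFA12, which sits at the junction with the Q module, fell from 55.6, 53.3 and 62.5 CPM in NC to 39.6, 41.2 and 42.6 CPM in KD. The groups were separate, with a log2 fold change of −0.48 (SE 0.055, edgeR adjusted p = 2.39e-08). NDUFV3 fell as well (−0.28). The flavin-binding core subunit NDUFV1 did not pass (−0.07).

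The Q module held the largest fall of all 76 genes. Of its 8 genes 3 rose and 4 fell (median −0.01; leukocyte scale: 0 higher, 8 lower), and 4 lay above the all-gene median on each scale. NDUFA6, an accessory subunit of the LYR family that holds the mitochondrial acyl carrier protein, was at 268, 243 and 254 CPM in NC and at 443, 435 and 415 CPM in KD. No KD library came near an NC library, and the log2 fold change was 0.76 (SE 0.044, edgeR adjusted p = 4.9e-14). NDUFA6 spans chr22:42085526-42090884 on GRCh38, on the minus strand, and shares no exon base with another gene. NDUFA9, a nucleotide-binding accessory subunit at the joint of the arms, was at 21, 18.1 and 18.4 CPM in NC and at 9.78, 8.37 and 9.37 CPM in KD. Every KD library was below every NC library, and the log2 fold change was −1.06 (SE 0.083, edgeR adjusted p = 1.89e-11). NDUFA9 (chr12:4649095-4694317, plus strand) shares 1103 exon bases with the unnamed gene ENSG00000255639 and 606 with ENSG00000272921, both on its strand, and these had log2 fold changes of −1.03 and −1.04. NDUFA5 fell by 0.11 and NDUFA7 by 0.74, the latter at a level of 4.19 ± 0.207 CPM in NC against 2.5 ± 0.132 CPM in KD. NDUFA7 shares 452 exon bases with the unnamed gene ENSG00000167774 on its strand (mean count 206 in NC, 101 in KD). Among the core subunits of this module, which line the path to ubiquinone, NDUFS8 rose (0.36), NDUFS7 fell (−0.42) and NDUFS3 did not pass (0.09). NDUFS7 shares 3836 exon bases with genes on the other strand, and the sources used here do not say whether strand was used in counting.

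The P module had the largest rise of all 76 genes. Of its 20 genes 6 rose, 5 fell and 9 did not pass (median 0.10; leukocyte scale: 0 higher, 19 lower), and 12 lay above the all-gene median on each scale. Library sizes alone gave 3 higher and 8 lower. NDUFB9, another LYR subunit that binds acyl carrier protein, stood at 126, 128 and 133 CPM in NC and at 299, 297 and 301 CPM in KD. The libraries of a group lay close together and the groups far apart, with a log2 fold change of 1.21 (SE 0.040, edgeR adjusted p = 6.15e-19) that came to −0.01 on the leukocyte scale. NDUFB9 shares 2001 exon bases with MTSS1 on the other strand. MTSS1, which encodes an actin- and membrane-binding protein, went from 187 ± 5.42 to 574 ± 5.82 CPM (log2 fold change 1.61), and without knowledge of strand the counts of this pair cannot be told apart over the shared bases. TATDN1, which shares 187 exon bases with NDUFB9, had a log2 fold change of 0.33. NDUFB1, with no shared exon base, rose from 27.8 ± 1.66 to 42.7 ± 3.85 CPM (0.62), and NDUFB5, NDUFA11, NDUFA13 and NDUFS5 rose by 0.18 to 0.42 on the log2 scale.

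NDUFS5, the most abundant subunit RNA per kilobase, was at 567, 584 and 591 CPM in NC and at 675, 650 and 656 CPM in KD. The groups were separate, but the log2 fold change of 0.18 (SE 0.041, edgeR adjusted p = 0.000287) was small, and it was −0.003 with library sizes alone. The falls of the P module were led by NDUFC2, a membrane-arm subunit, at 23.6, 20.1 and 20.5 CPM in NC against 13.9, 14.7 and 13.7 CPM in KD. Its log2 fold change was −0.60 (SE 0.074, edgeR adjusted p = 7.05e-08), with every KD library below every NC library. It shares 428 exon bases with the readthrough gene NDUFC2-KCTD14 (−0.58). NDUFC1 fell by 0.52, NDUFB8 by 0.35, NDUFB11 by 0.33 and NDUFB10 by 0.19, the last with groups that overlapped. NDUFC1 shares 360 exon bases with MGARP on its strand (mean count 224 in NC, 4.67 in KD). It also shares 584 with NAA15 on the other strand (5461 and 3782). NDUFB8 shares 675 with the unnamed gene ENSG00000255339 on its strand (7588 and 5492), so reads may be counted for both genes of such a pair. NDUFA1, NDUFA3, NDUFA8, NDUFA10, NDUFB2, NDUFB3, NDUFB4, NDUFB6 and NDUFB7 did not pass.

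**Figure D3:**
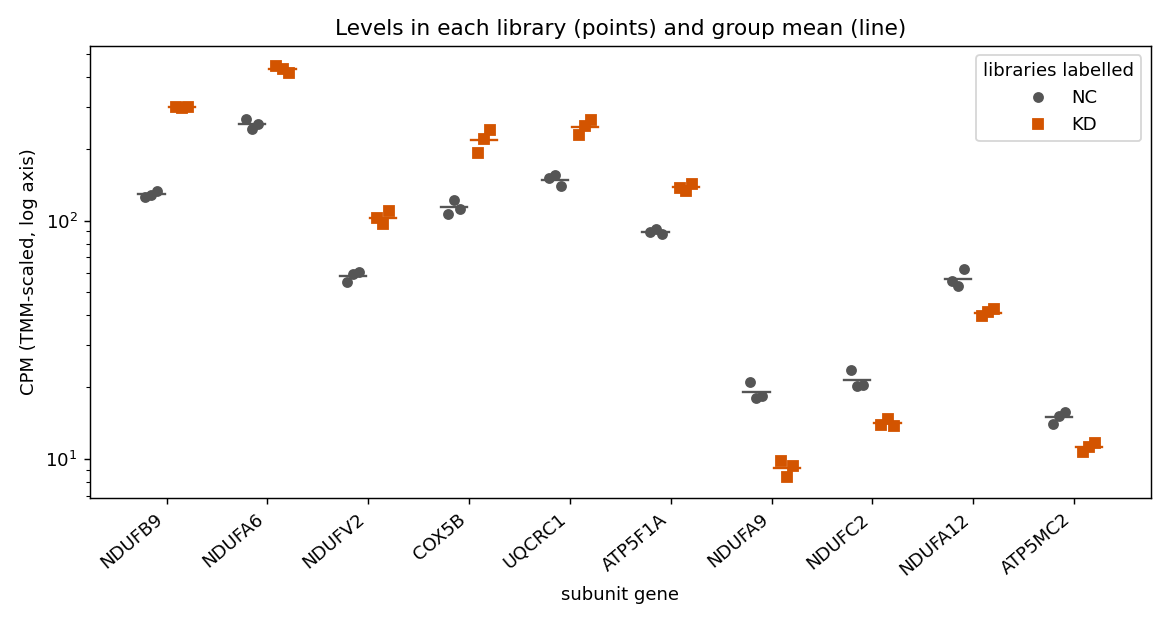
CPM (TMM-scaled, log axis) of 10 subunit genes with large differences in every library: circles NC, squares KD, horizontal lines the group means of 3 libraries. The groups are separate for each gene, with NDUFB9 the highest rise (126 to 133 against 297 to 301 CPM) and NDUFA9 the largest fall (18.1 to 21 against 8.37 to 9.78 CPM); on the leukocyte scale each of the 10 had a negative log2 fold change.

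Complex II, succinate dehydrogenase, is also an enzyme of the citric acid cycle and has no mitochondrially encoded subunit. Of its 4 genes 3 rose and 0 fell (median 0.29; leukocyte scale: 0 higher, 4 lower), and all 4 lay above the all-gene median on each scale. Library sizes alone gave 1 higher and 1 lower. SDHA, the flavoprotein that oxidises succinate, was at 115, 117 and 113 CPM in NC and at 145, 148 and 147 CPM in KD, so the groups were separate (log2 fold change 0.35, SE 0.039, edgeR adjusted p = 1.35e-08). SDHA has near-identical copies: 4 pseudogene rows held together 36.2% of its count in NC and 40.1% in KD, and the unnamed gene ENSG00000286001 shares 1887 exon bases with it (0.41), so its value is uncertain. The membrane anchors SDHD and SDHC rose by 0.35 and 0.23 on the log2 scale, SDHC with overlapping groups. The iron-sulfur subunit SDHB was at 23.5 ± 0.873 CPM in NC against 23.9 ± 0.505 CPM in KD and did not pass (0.03, edgeR adjusted p = 0.665). SDHB was lower with library sizes alone (−0.16, edgeR adjusted p = 0.0289).

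Among these groups complex III had the highest median. Of its 9 genes 8 rose and 0 fell (median 0.42; leukocyte scale: 0 higher, 9 lower), and all 9 lay above the all-gene median on each scale, by 0.46 at their median. Library sizes alone gave 5 higher and 1 lower. The summed level of the 9 genes was 868 ± 24.1 CPM in NC against 1226 ± 7.41 CPM in KD. UQCRC1, one of the core proteins that face the matrix (chr3:48599002-48610976, minus strand), was at 151, 155 and 140 CPM in NC and at 228, 248 and 265 CPM in KD. The groups were separate, at 0.74 (SE 0.050, edgeR adjusted p = 2.05e-12). UQCR11 rose by 0.66, UQCRB by 0.49, the Rieske iron-sulfur protein UQCRFS1 by 0.42, UQCRC2 by 0.24 and UQCRQ by 0.20 on the log2 scale. UQCR10 did not pass (−0.02, edgeR adjusted p = 0.842) but was lower with library sizes alone (−0.20, edgeR adjusted p = 0.0212).

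UQCRH, the hinge protein between cytochrome c1 and cytochrome c, has an intronless copy, UQCRHL, at chr1:15807169-15809348 on the minus strand. The coding sequences of the pair are each 273 bases long and differ at 4 of them (98.5% identity), so that a coding read without such a base fits both genes. Bases 138 to 253 of each coding sequence hold all 4 differences. They are given 5′ to 3′ on the coding strand from the GENCODE transcripts, with the differing bases in capitals.
UQCRH: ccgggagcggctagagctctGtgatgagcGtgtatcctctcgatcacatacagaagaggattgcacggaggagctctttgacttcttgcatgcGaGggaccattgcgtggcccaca
UQCRHL: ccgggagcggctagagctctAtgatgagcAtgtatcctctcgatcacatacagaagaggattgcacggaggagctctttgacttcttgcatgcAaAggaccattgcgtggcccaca
UQCRH was at 179, 195 and 209 CPM in NC and at 269, 281 and 281 CPM in KD, with separate groups and a log2 fold change of 0.51 (SE 0.048, edgeR adjusted p = 5e-10). UQCRHL was at 16.7, 18.3 and 20.2 CPM in NC and at 24.4, 19.9 and 22.2 CPM in KD. Its groups overlapped, though the test called it higher (0.27, SE 0.078, edgeR adjusted p = 0.0033; not past with library sizes alone, adjusted p = 0.354). The copy took 8.54%, 8.58% and 8.81% of the counts of the pair in NC and 8.33%, 6.62% and 7.31% in KD. The sources used here do not say how the authors placed reads that fit both, and the value of the copy is uncertain for that reason.

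Complex IV, cytochrome c oxidase, has its catalytic core in mitochondrial DNA and a ring of small nuclear subunits around it. Of its 15 nuclear genes 10 were tested, and of these 6 rose and 2 fell (median 0.36; leukocyte scale: 0 higher, 10 lower), with 8 above the all-gene median on each scale. COX5B, a zinc-binding subunit on the matrix side, was at 107, 122 and 112 CPM in NC and at 193, 220 and 240 CPM in KD. The lowest KD library was well above the highest NC library, and the log2 fold change was 0.94 (SE 0.076, edgeR adjusted p = 3.45e-07). COX6C, the most abundant of the complex per kilobase, rose from 464 ± 21.9 to 660 ± 36.1 CPM (0.51), NDUFA4 from 7.79 ± 0.497 to 11 ± 1.52 CPM (0.50) and COX6B1 from 12.4 ± 0.398 to 17.1 ± 0.596 CPM (0.46). COX5A, a matrix-side subunit, was at 41.9 ± 4.08 CPM in NC against 42.1 ± 4.47 CPM in KD and did not pass (0.01). COX6A1 fell from 45.3, 48.3 and 46.4 CPM in NC to 40.6, 38.5 and 39.4 CPM in KD, with separate groups (−0.24, SE 0.049, edgeR adjusted p = 9.08e-05), and COX7C fell by 0.10. Of these falls, 1 in place of 2 was called without NC replicate 1, KD replicate 2 or KD replicate 3, and at a threshold of 0.01.

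Several complex IV subunits come as a widely expressed form and a form made in muscle, testis or other tissues. The libraries held the widely expressed forms. COX7A2 had 3611 to 5600 counts per library and rose by 0.57 on the log2 scale, while the muscle form COX7A1 had 0 to 3 counts. COX6A2, the muscle form beside COX6A1, had 0 to 2 counts in each library. COX6B2, the testis form beside COX6B1, had 2, 6 and 6 counts in NC and 2, 0 and 0 in KD. COX8C had 0 to 2 counts, and COX7B2 had none in any library. COX8A rose by 0.25 (edgeR adjusted p = 0.0306), a call lost in DESeq2, with library sizes alone, and without NC replicate 1, NC replicate 2, KD replicate 1 or KD replicate 3 (edgeR adjusted p 0.055 to 0.117 in those 4). COX7B did not pass (0.04).

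The F1 head of the ATP synthase holds the catalytic sites. All 5 of its genes rose (median 0.37; leukocyte scale: 0 higher, 5 lower), and all 5 lay above the all-gene median on each scale. Called higher were 3 in place of 5 without NC replicate 1, without KD replicate 3, in DESeq2 and at a threshold of 0.01. Library sizes alone gave 2 higher and 0 lower. ATP5F1A, the alpha subunit, was at 89.3, 91.9 and 87.8 CPM in NC and at 138, 134 and 142 CPM in KD. The groups were separate, at 0.62 (SE 0.041, edgeR adjusted p = 6.72e-13). ATP5F1B, the catalytic beta subunit, was the most abundant of the head per kilobase and was at 172, 173 and 172 CPM in NC and at 191, 188 and 199 CPM in KD. Its groups were separate too, but the difference was small (0.16, SE 0.040, edgeR adjusted p = 0.000857; −0.03 with library sizes alone). In the head the alpha and beta proteins are present in equal number. The epsilon subunit ATP5F1E rose by 0.59, the delta subunit ATP5F1D by 0.37 and the gamma subunit ATP5F1C by 0.12 on the log2 scale. ATP5F1D had groups that overlapped. With library sizes alone ATP5F1D was not past (0.18, edgeR adjusted p = 0.239) and ATP5F1C was at −0.06.

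In the membrane sector and the stalk of the ATP synthase 12 of 13 genes were tested: 4 rose, 2 fell and 6 did not pass (median 0.12; leukocyte scale: 0 higher, 12 lower), and 9 lay above the all-gene median on each scale. Library sizes alone gave 2 higher and 4 lower. ATP5PD, a stalk subunit, was at 81.2, 82.2 and 77.2 CPM in NC and at 102, 106 and 101 CPM in KD, so the groups were separate (0.36, SE 0.041, edgeR adjusted p = 2.4e-08). ATP5MG and ATP5PB rose by 0.32 and 0.27 on the log2 scale. ATP5PF, the most abundant of this sector per kilobase, rose by 0.17 and was at −0.02 with library sizes alone. ATP5PO, the subunit that ties the stalk to the head, fell from 20.9 ± 1.7 to 15.6 ± 1.04 CPM (−0.42). ATP5ME, ATP5MF, ATP5MJ and ATP5MK did not pass. ATP5MGL, a copy of ATP5MG, had 0 to 2 counts in each library.

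The proton-driven ring of the ATP synthase is built from a single small protein, subunit c, that 3 genes encode with different import signals and the same mature protein. ATP5MC2 was at 14, 15.2 and 15.7 CPM in NC and at 10.7, 11.2 and 11.7 CPM in KD, and fell with separate groups (−0.42, SE 0.078, edgeR adjusted p = 3.8e-05). ATP5MC1 went from 7.11 ± 0.672 to 8.01 ± 0.315 CPM (0.17, edgeR adjusted p = 0.122) and ATP5MC3 from 18.5 ± 0.768 to 20.1 ± 0.328 CPM (0.12, edgeR adjusted p = 0.0966), and neither passed. Of the counts of the 3 genes, ATP5MC2 took 35.2%, 37.6% and 37.7% in NC and 27.6%, 28.9% and 28.9% in KD. ATP5MC1 took 16.0%, 18.4% and 18.1% in NC and 20.7%, 19.9% and 20.6% in KD, and ATP5MC3 took 48.8%, 44.0% and 44.2% in NC and 51.7%, 51.2% and 50.5% in KD. These shares do not depend on the scale, and for each of the 3 genes the groups were separate. They are parts of a whole in each library, so they do not stand for 3 separate results.

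Subunits that the name pattern left out went in both directions. Of 8 tested, 4 rose and 2 fell (36.2% and 40.3% of all tested genes). On the leukocyte scale 0 were higher and 8 lower, and 5 lay above the all-gene median on each scale. Cytochrome c1, encoded by CYC1, rose from 26.9 ± 0.477 to 39.7 ± 1.95 CPM (0.56), as the complex III genes above did, and cytochrome c, encoded by CYCS, rose from 484 ± 26.9 to 589 ± 11.9 CPM (0.28). NDUFA4L2, a paralog of NDUFA4, rose by 0.80 at 3.97 ± 0.226 CPM in NC against 6.92 ± 0.216 CPM in KD. COX4I1, the large structural subunit of complex IV, rose by 0.13 and was at −0.05 with library sizes alone, while its paralog COX4I2 had almost no counts and was not tested. ATP5IF1, the protein that inhibits the ATP synthase when it runs backwards, fell from 405, 428 and 419 CPM in NC to 221, 231 and 232 CPM in KD. Its groups were far apart (−0.87, SE 0.041, edgeR adjusted p = 8.05e-16). DMAC2L fell by 0.69. COX7A2L (−0.09) did not pass on the TMM scale but was lower with library sizes alone and on the leukocyte scale. NDUFAB1 (0.04), the acyl carrier protein itself, did not pass, but was called higher without KD replicate 1 (0.17, edgeR adjusted p = 0.0285).

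The subunits encoded by mitochondrial DNA were lower in KD on each of the 3 scales. Of all tested genes 40.3% were lower on the TMM scale, 47.3% with library sizes alone and 83.9% on the leukocyte scale. All 13 mitochondrial genes fell (median −0.49 on the TMM scale), from −0.78 for MT-CO3 to −0.11 for MT-ND1. On each scale 0 of the 13 lay above the all-gene median. MT-ND5 fell by 0.73 and MT-CYB by 0.60 on the log2 scale. Their summed level went from 40990 ± 384 to 29305 ± 672 CPM. The mitochondrial genes held 7.49, 7.30 and 7.51 times the CPM of the 82 nuclear genes in the NC libraries and 4.18, 4.36 and 4.11 times in the KD libraries, a ratio within each library that does not depend on the scale. The groups did not overlap. The median of the nuclear subunit genes lay 0.66 above that of the mitochondrial ones on each scale, 61 of the 76 nuclear genes were above the highest mitochondrial gene, and 4 were below the mitochondrial median. The sources used here do not say whether polyadenylated RNA was selected, which affects mitochondrial transcripts.

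Lists of the factors that assemble the complexes, which are not part of the finished enzymes, held genes in both directions. Of 63 tested, 13 rose (20.6%, beside 36.2% of all tested genes) and 33 fell (52.4%, beside 40.3%), with a median of −0.21, and on the leukocyte scale none was higher. On each scale 20 of the 63 lay above the all-gene median. For complex III 7 of 9 fell and 0 rose, among them TTC19 from 46.9 ± 2.1 to 18.9 ± 1.18 CPM (−1.31), the chaperone BCS1L, which inserts the Rieske protein, from 18.3 ± 0.628 to 6.19 ± 0.489 CPM (−1.56), and the Rieske chaperone LYRM7 (−1.21). For complex IV 12 of 27 fell and 7 rose, and the copper-delivery proteins COX11 (−1.92) and SCO1 (−1.54) and the small factor PET117 (−1.57) had the smallest p. All 4 factors listed here for the ATP synthase fell. ATPAF1, the chaperone of the beta subunit, went from 29.1 ± 1.44 to 5.62 ± 0.327 CPM (−2.37), and FMC1 fell by 1.41 and ATPAF2 by 0.36. For complex I 9 of 19 fell and 5 rose, with NUBPL, which delivers iron-sulfur clusters, at −2.25, NDUFAF5 at −0.92 and NDUFAF2 at −0.90 (from 144 ± 3.49 to 77.2 ± 3.76 CPM). TMEM70, listed here with complex I and not with the ATP synthase, rose from 42.0 ± 5.18 to 83.0 ± 14.6 CPM (0.99). On the leukocyte scale TMEM70 was at −0.24. For complex II SDHAF3 fell (−2.35), SDHAF2, which puts the flavin into SDHA, rose (0.31) and was not past with library sizes alone, and SDHAF1 did not pass (−0.28).

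Of 16 tested regulators of mitochondrial genes 6 rose and 6 fell (36.2% and 40.3% of all tested genes). TFAM, which packages and transcribes mitochondrial DNA, fell from 53.7 ± 0.527 to 24.4 ± 0.996 CPM (−1.14) on the TMM scale and was lower on the others too. Other factors of mitochondrial transcription went both ways, with TFB2M at 0.72 (−0.51 on the leukocyte scale) and TFB1M at −0.65. The coactivator PPARGC1B rose from 26.9 ± 1.51 to 55.5 ± 1.34 CPM (1.04) and the receptor ESRRA from 33.6 ± 2.33 to 55.0 ± 2.24 CPM (0.71), and on the leukocyte scale these were −0.18 and −0.51. The related coactivator PPARGC1A fell (−2.01) at a low level, from 1.17 ± 0.104 to 0.288 ± 0.105 CPM. NRF1 and the genes of the ETS factor GABP are named for the promoter search below. NRF1 fell by 0.49, and GABPA, the DNA-binding part of GABP, did not pass (−0.07). GABPB1 and GABPB2, the other GABP genes of the list, rose by 0.28 and 0.34 on the log2 scale. On the leukocyte scale they were at −0.95 and −0.89, and GABPB1 was not past with library sizes alone (0.09, edgeR adjusted p = 0.324). NRF1 and GABP are known to bind promoters of many respiratory chain genes.

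**Figure D4:**
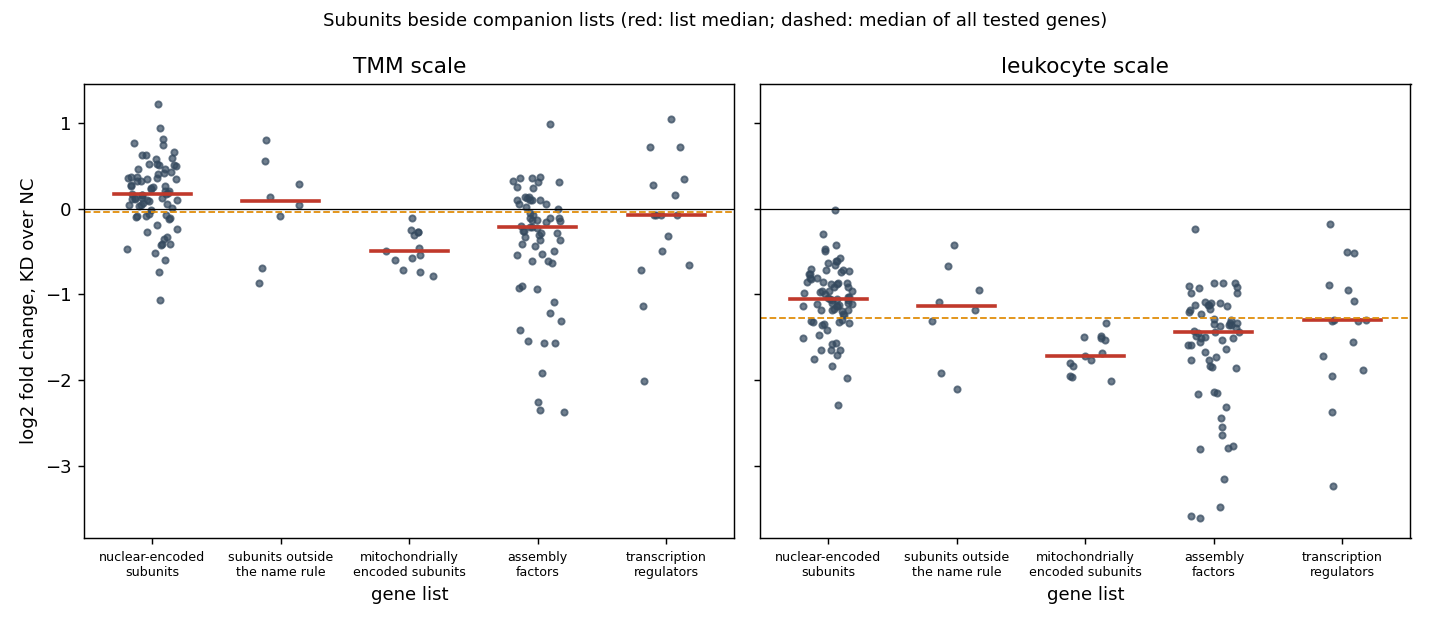
Log2 fold change (KD over NC) of each tested gene in the subunit list and 4 companion lists, on the TMM scale (left) and the leukocyte scale (right); points are genes, red bars list medians, dashed lines the median of all tested genes (−0.05 and −1.27). The nuclear subunits sit 0.22 above the dashed line in both panels and the 13 mitochondrially encoded genes all sit below it, while the sign of the subunit median changes between panels.

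The promoters of the subunit genes were searched for the core letters of these factors, CGCATGCG for NRF1 and CCGGAAG for the ETS family, on both strands, in the RefSeq windows (GRCh38.p14) that run from 250 bases before to 50 after each gene start. Of the 82 genes 66 had a window. The NRF1 core was in the windows of 11 genes (16.7%), beside 2.46% of the 27305 gene symbols in the table, and the ETS core in those of 20 (30.3%), beside 12.2%. By call, 13 of 29 matched and tested genes that rose held the ETS core, 1 of 14 that fell and 6 of 19 that did not pass. The NRF1 core was in 4 of 29 that rose, 4 of 14 that fell and 3 of 19 that did not pass. These are counts of letters in a window, given without a test. The shares by call over all tested genes were not computed. Whether the split by call is particular to the subunit genes was therefore not tested. The calls by direction are those of the TMM scale, and on the leukocyte scale no subunit gene was higher.

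The 120 bases just before the gene start of the count table, cut from the RefSeq windows, are shown for 4 rising genes that hold a core and for NDUFA9, the largest fall, which holds neither in these bases. These examples do not stand for all subunit genes. NDUFV2, NDUFA6 and UQCRC1 rose with neither core in their windows. COX6A1 fell with both cores, and ATP5MC2, NDUFA5 and NDUFS7 fell with the NRF1 core. They are written 5′ to 3′ on the strand of the gene, with the cores in capitals, at chr2:97645942-97646061 (COX5B, plus), chr19:1605474-1605593 (UQCR11, minus), chr19:35648203-35648322 (COX6B1, plus), chr5:1801287-1801406 (NDUFS6, plus) and chr12:4648975-4649094 (NDUFA9, plus).
COX5B: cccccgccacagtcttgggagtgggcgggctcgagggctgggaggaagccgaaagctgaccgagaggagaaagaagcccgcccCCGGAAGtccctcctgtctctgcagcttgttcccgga
UQCR11: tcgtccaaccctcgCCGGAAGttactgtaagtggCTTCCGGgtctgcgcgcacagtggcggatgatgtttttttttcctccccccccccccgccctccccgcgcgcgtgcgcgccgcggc
COX6B1: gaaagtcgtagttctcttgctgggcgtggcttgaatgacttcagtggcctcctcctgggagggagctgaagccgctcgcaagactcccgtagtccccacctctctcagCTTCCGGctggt
NDUFS6: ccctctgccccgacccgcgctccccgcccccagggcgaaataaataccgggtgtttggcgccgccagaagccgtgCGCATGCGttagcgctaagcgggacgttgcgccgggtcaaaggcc
NDUFA9: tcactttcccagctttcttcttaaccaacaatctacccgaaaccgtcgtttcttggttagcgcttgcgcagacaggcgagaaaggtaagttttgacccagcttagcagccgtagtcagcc
COX5B, UQCR11 and COX6B1, each higher in KD on the TMM scale, hold the ETS core in these bases, UQCR11 on both strands, and NDUFS6 holds the NRF1 palindrome 45 bases before its start.

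Annotation touches these values. Of the 82 genes, 43 share exon bases with another gene of the table, 26 of them on the same strand. Only some of these pairs are named above. Other pairs on the same strand include COX6A1 with ENSG00000111780 (175 bases) and COX8A with ENSG00000256100 (175). UQCR11 with ENSG00000267059 (235) and ATP5PO with ENSG00000249209 (492) are further examples. Among the 35 tested genes that share none, 20 rose and 4 fell, with a median of 0.18, and 29 lay above the all-gene median on each scale. Among the 41 that share bases, 20 rose and 11 fell, with a median of 0.11. The table holds 186 pseudogene rows of 48 subunit genes. Apart from those of SDHA, they held together at most 1.39% of the count of their parent gene in either group. Over the 6 libraries, the genes whose log2 CPM most resembled the mean of the tested subunit genes were CXCR5, SUMO3 and KBTBD8 (Pearson r 0.998 each), which is a description over 6 libraries in 2 groups.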

How the data were processed

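The authors deposited a table of whole-number read counts per gene, not normalized, with exon coordinates and lengths, for 6 libraries. The submitters' processing notes name fastp 0.23.0 and the build GRCh38. Aligner, counter, annotation release, strand use and RNA selection: not given in the sources used here. Depth was 37628972 to 42970216 total counts per library. Even numbers made up 67.8% to 70.3% of the small counts (1 to 20) and 50.2% to 51.4% of the large ones, a pattern that arises when the mates of a fragment are counted apart, so a small count stands for fewer fragments. Libraries of a group differed by more than sampling noise (a chi-square of 3.24 to 6.46 for each degree of freedom).

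The 3 KD and 3 NC libraries were compared with edgeR 4.0.16 (R 4.3.3): TMM, filterByExpr, robust quasi-likelihood test, Benjamini-Hochberg adjustment over all 21905 tested genes, two-sided, threshold 0.05. SE was taken as the absolute log2 fold change over the square root of F. Reads overlapping genes can be counted for each. The steps were tested on simulated data with 50 genes changed at each fold. Recovery was 48% at 1.25-fold, 74% at 1.5-fold, 80% at 2-fold and 98% at 4-fold, with 2 false calls. Few genes were changed there, while 76.5% were called in the real data, so the simulation cannot test the scale. The members, the companion and marker lists and the leukocyte scale were chosen with earlier results of these data known. Members named first are the largest rise and fall past the threshold (minimum 1 CPM in the group where it is higher) and the highest level per kilobase in each group, and all paralog isoforms; the other members follow, except that 1 is counted but not reported here by itself. Companion lists give the 3 smallest p each and all subunits outside the name pattern. MT-ND1 ends a range. NRF1, GABPA, GABPB1, GABPB2, TFB1M, TFB2M, PPARGC1A, TMEM70 and genes with shared exons were added after their values were seen. Resemblance used log2(CPM + 0.5). Alternatives were DESeq2 1.42.0 and its size factors, library sizes alone, the leukocyte scale, other filters, limma-voom (limma 3.58.1), leaving out each library, the replicate number as a block, non-robust estimation, halved counts, a threshold of 0.01 and genes without shared exons. Tables and figures were made in Python 3.11.15 (numpy 2.4.6, pandas 2.3.3, matplotlib 3.10.9, scipy 1.17.1). Promoters came from RefSeq (GRCh38.p14) and coding sequences from GENCODE 29.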

Additional observations from a re-analysis of the deposited data

How the results depend on the processing

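The scale set the direction. With library sizes alone 24 subunit genes were higher and 24 lower, with a median log2 fold change of −0.016, and on the leukocyte scale 0 were higher and 75 lower, with a median of −1.06. With library sizes alone the log2 fold change turned for NDUFS5 (−0.0033), ATP5PF (−0.017), ATP5F1B (−0.029), ATP5F1C (−0.065) and COX4I1 (−0.054), and for NDUFS1 (−0.095) it turned past the threshold. On the leukocyte scale it turned for all 40 subunit genes that rose, and among the genes named by rule for UQCRC1 (−0.49), UQCRH (−0.71), SDHA (−0.88), NDUFB9 (−0.01), NDUFS5 (−1.04), ATP5PD (−0.87), ATP5PF (−1.06), NDUFA6 (−0.47), ATP5F1A (−0.61), ATP5F1B (−1.07), COX5B (−0.29), COX6C (−0.72), NDUFV2 (−0.42), NDUFS6 (−0.82), COX6B1 (−0.76), COX7A2 (−0.65), COX7B (−1.19), COX8A (−0.98), ATP5MC1 (−1.05), ATP5MC3 (−1.11), UQCRHL (−0.96), ATP5MG (−0.91), CYC1 (−0.67), NDUFA4L2 (−0.43), CYCS (−0.95), COX4I1 (−1.09), NDUFAB1 (−1.19), SDHAF2 (−0.92), PPARGC1B (−0.18) and ESRRA (−0.51). This follows from the scales, which shift all genes alike, and which scale is right was not tested. Without the genes that share exon bases, fewer genes remain, 20 higher and 4 lower. Leaving out each library gave 35 to 41 higher, 13 to 16 lower, a median of 0.149 to 0.195 and 16288 to 16661 genes called in all. The other settings gave 36 to 40 higher and 13 to 18 lower. Of the 55 calls, 51 kept their direction in DESeq2 and 39 with library sizes alone. The replicate numbers did not pair the samples (same-number correlations 0.015, 0.006 and −0.014), and with the replicate block 40 were higher and 15 lower, with 16428 genes called in all. Halved counts gave 40 higher and 16 lower.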
